A study of Mus musculus with 6 samples.

Results

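Collagens are the main structural proteins of the extracellular matrix. The expression of 42 genes that encode collagen chains was compared between left ventricles of PTIP KO and PTIP+ mice. Members were all genes whose annotated symbol is Col, digits, a, digits, each represented by the brightest, on average over the 6 arrays, of the probe sets that match it alone. They made up 42 of the 18193 genes measured. By the type of assembly their chains form, 11 were fibrillar, 6 were basement membrane (type IV) chains, 9 were FACIT (fibril-associated collagens with interrupted triple helices) or FACIT-like, and 16 belonged to other types. Col6a6 and Col28a1, which carry such a symbol in the RefSeq gene table, were not analysed here. The study used female littermates of 8 weeks on a mixed C57B6 and B6129 background. PTIP is encoded by Paxip1. In the 3 PTIP KO mice one copy of this gene was null and the other floxed, and Cre, fused to a modified estrogen receptor, was expressed under the alpha myosin heavy chain promoter. In the 3 PTIP+ mice one copy was wild type and the other floxed, with no Cre transgene named for them. All 6 received tamoxifen at 20 mg/kg, with RNA from the ventricular apex taken 5 days later. The driver acts in cardiomyocytes, so other cells of the PTIP KO apex keep their floxed allele. Beside it they carry the null copy, whereas the same cells of PTIP+ mice carry a wild-type copy. The groups thus differ in Paxip1 genotype in these cells too.

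A collagen molecule is built from 3 chains wound into a triple helix in the endoplasmic reticulum, where prolines and lysines are hydroxylated, and is trimmed and cross-linked after secretion. In the heart most fibrillar collagen comes from fibroblasts. Collagen IV is made by endothelial and mural cells as well as cardiomyocytes, each of which sits on a basement membrane. Fibrillar collagens carry tensile load between muscle bundles, and their accumulation is the hallmark of cardiac fibrosis.

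Values are log2 expression values of Affymetrix arrays processed with RMA, with 1 array per mouse. Probe sets differ in their response to RNA, so a level is compared between mice and not between genes. The arrays had medians between 5.15 and 5.26, and pairs of arrays correlated between 0.989 and 0.995. All 4 probe sets of Paxip1 had lower values in every PTIP KO mouse than in any PTIP+ mouse, and 3 of the 4 passed the test. The log2 difference on the probe set with the largest change was -1.83 (SE 0.17, limma adjusted p = 0.0240). With 1 mouse left out it stayed between -1.97 and -1.71, but its adjusted p lay between 0.0590 and 0.116, and none of the 4 passed. The 9 cardiomyocyte marker genes had mean levels from 13.38 to 13.43 in PTIP KO mice and from 13.42 to 13.45 in PTIP+ mice. In bulk tissue, fewer cells of a type and less RNA per cell cannot be told apart.

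None of the 42 collagen genes passed the test between PTIP KO and PTIP+ ventricles. The limma adjusted p over all probe sets was 0.608 or above for every member, while 0.286% of all genes passed. At an unadjusted limma p under 0.05 there was also no member, against 9.27% of all genes. Differences ran from -0.53 for Col19a1 to 0.38 for Col18a1 on the log2 scale, and 32 of the 42 lay within 0.2 of 0. The median difference of the collagens was -0.05, against 0.02 for all genes, with 26 members lower and 16 higher by sign. By sign alone, 61.9% of the collagens and 44.9% of all genes were lower. The median of the collagens did not keep its sign, and it was 0.07 without PTIP+ mouse 1. The 3 PTIP KO values lay all on one side of the 3 PTIP+ values for 1 of the 42 collagens, Col4a6, against 16% of all genes. None of the 40 further probe sets of these genes passed either, and none had an unadjusted p under 0.05, against 9.07% of all probe sets, of which 0.191% passed after adjustment.

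**Figure D1:**
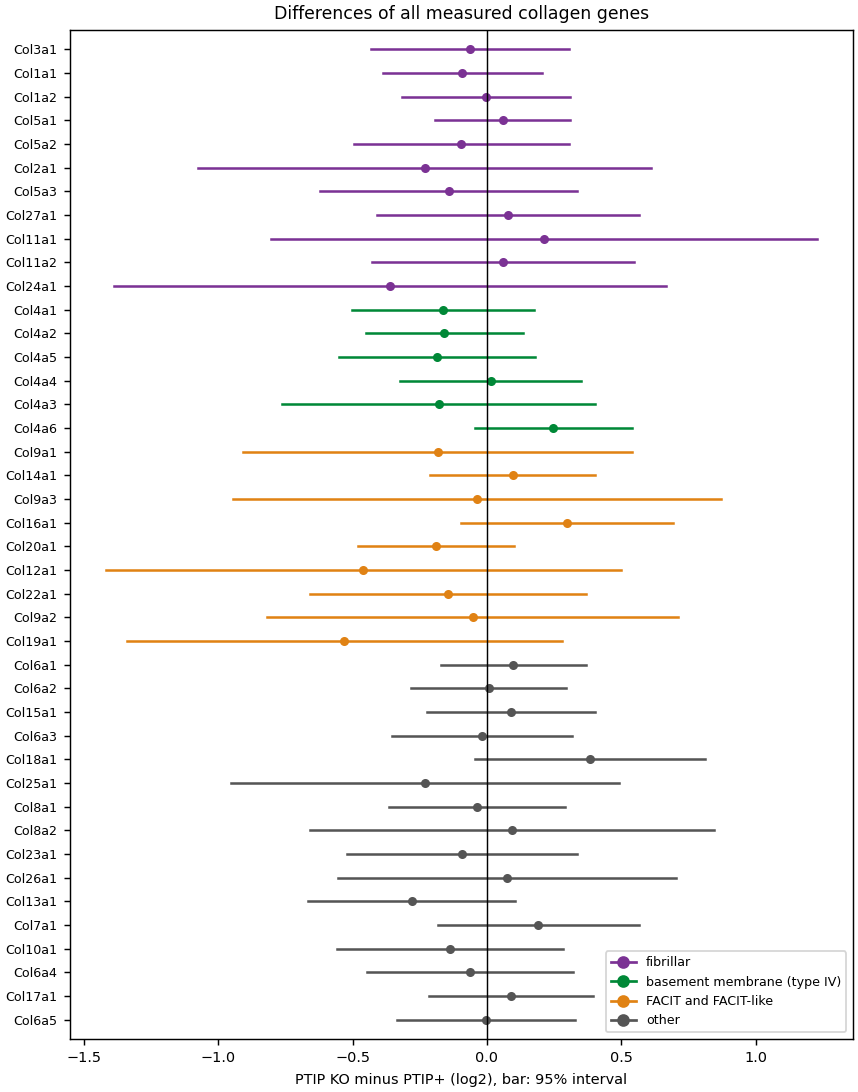
Log2 difference of PTIP KO minus PTIP+ (horizontal axis) for each of the 42 collagen genes, by type; points are the limma estimates and bars their 95% intervals. Every interval includes 0, and the widest belong to Col24a1, Col11a1, Col12a1 and Col9a3.

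The intervals show what size of difference 3 mice against 3 could have missed. For the 11 collagens with a mean level of 9 or above, the differences lay between -0.16 and 0.10, and the 95% interval stayed within 0.5 log2 units on both sides for 10 of them. Over all 42 members the interval stayed within 1 log2 unit, a factor of 2 either way, for 37. A failed test does not show that a gene had the same level in both groups, and 12 members had a mean below 5.19, the median of all probe set means, where RMA compresses differences.

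Among fibrillar collagens, the genes of types I and III, which form the thick and thin fibres of the cardiac interstitium, had levels that overlapped between the groups. Col1a1, the main chain of collagen I, read 11.66, 11.73 and 11.70 in PTIP KO mice 1 to 3, against 12.00, 11.64 and 11.72 in PTIP+ mice 1 to 3. The PTIP KO values lay close together, inside the span of the PTIP+ values. The difference was -0.09 (SE 0.13, 95% interval -0.39 to 0.21, limma adjusted p = 0.901), and it was 0.02 without PTIP+ mouse 1. Its partner chain Col1a2 read 11.23, 10.94 and 11.32 in PTIP KO mice, against 11.13, 11.27 and 11.10 in PTIP+ mice, with a difference of -0.00335 (95% interval -0.32 to 0.31). The highest and lowest of the 6 were both PTIP KO mice. The 2 further Col1a2 probe sets differed by -0.11 and 0.20, the one with the positive sign at a level near 4. Col3a1, whose chains form collagen III, read 11.83, 11.66 and 12.19 in PTIP KO mice, against 11.97, 12.06 and 11.84 in PTIP+ mice. Its difference of -0.06 (SE 0.16, 95% interval -0.43 to 0.31, limma adjusted p = 0.952) was smaller than the spread of the PTIP KO mice (SD 0.27, n = 3).

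The 3 collagen V genes, whose product sits inside collagen I fibrils and limits their width, differed little on their brightest probe sets. Col5a1 averaged 9.79 ± 0.10 in PTIP KO mice and 9.73 ± 0.05 in PTIP+ mice (SD, n = 3 each), the narrowest spread of all 42 members. Its further probe sets differed by -0.20 and 0.09. The first, at a mean level of 9.09, had the opposite sign (limma adjusted p = 0.711). Every PTIP KO value on it lay below all PTIP+ values, a state found for 6.57% of all genes. Col5a2 averaged 9.48 ± 0.32 and Col5a3 7.73 ± 0.40 in PTIP KO mice, against 9.58 ± 0.10 and 7.87 ± 0.14 in PTIP+ mice (SD, n = 3 each). Col5a2, Col5a3, Col3a1 and Col1a2 shared their extremes, with PTIP KO mouse 3 highest and PTIP KO mouse 2 lowest of the 6 mice. Further probe sets did not share both extremes. That of Col3a1 was lowest in PTIP KO mouse 1, that of Col5a2 was highest in PTIP+ mouse 1 and lowest in PTIP KO mouse 1, the dim one of Col5a3 was lowest in PTIP+ mouse 3, and the brighter one of Col1a2 was highest in PTIP+ mouse 1 and lowest in PTIP+ mouse 2. The other fibrillar genes, Col2a1, Col11a1, Col11a2, Col24a1 and Col27a1, are described with the cartilage genes or by mouse below. As a type, the fibrillar genes had a median difference of -0.06, with 7 of 11 lower, and the median was 0.07 without PTIP+ mouse 1 and 0.04 without PTIP KO mouse 2.

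**Figure D2:**
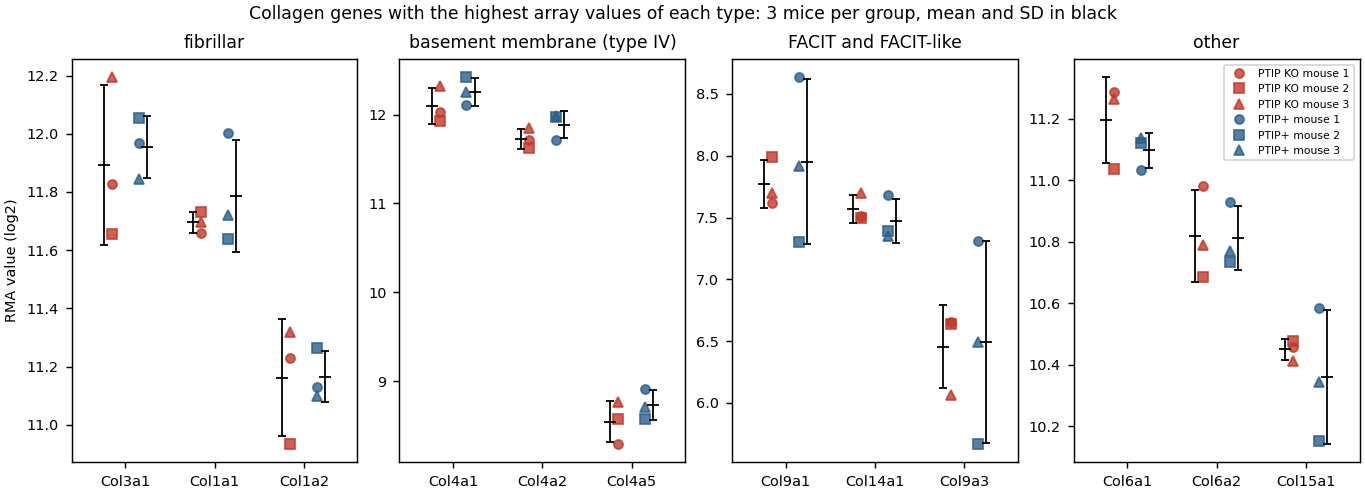
RMA values on the log2 scale (vertical axis, a separate range in each panel) of the 3 collagen genes with the highest mean in each type; each symbol is a mouse, PTIP KO in red and PTIP+ in blue, with mean and SD in black. The groups overlap for all 12 genes, and the PTIP+ mice spread widest for Col9a1 and Col9a3.

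Neither Col1a2 nor Col3a1 passed the test, and no start region was available for Col1a1. The start regions of Col1a2 and Col3a1 are shown as examples of fibrillar genes, one for a chain of collagen I and one for collagen III. They are RefSeq windows of the build GRCm38.p6 from 250 bases before to 50 bases after the start of the gene, both on the plus strand, at chr6:4505368-4505667 for Col1a2 and chr1:45311288-45311587 for Col3a1. Capitals mark 3 promoter motifs, searched on both strands, and no marked match overlaps another. The first is CCAAT, named for its letters. The second is GGGCGG, the GC box that factors of the Sp1 family bind. The last is TATAAA, the core of the TATA box.
Col1a2: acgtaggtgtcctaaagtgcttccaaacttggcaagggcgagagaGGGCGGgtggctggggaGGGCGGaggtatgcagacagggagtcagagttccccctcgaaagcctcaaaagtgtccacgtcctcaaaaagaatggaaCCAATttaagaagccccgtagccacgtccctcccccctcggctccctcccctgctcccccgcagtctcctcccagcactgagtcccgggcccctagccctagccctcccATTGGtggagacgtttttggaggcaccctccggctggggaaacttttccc
Col3a1: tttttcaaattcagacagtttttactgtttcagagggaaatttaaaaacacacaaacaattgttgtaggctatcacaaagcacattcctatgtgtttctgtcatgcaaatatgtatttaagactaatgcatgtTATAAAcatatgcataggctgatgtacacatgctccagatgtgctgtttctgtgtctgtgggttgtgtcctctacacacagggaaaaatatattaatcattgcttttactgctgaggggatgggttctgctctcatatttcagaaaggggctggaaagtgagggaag
The Col1a2 window was 61.0% G and C and held 2 matches each to CCAAT and GGGCGG. The Col3a1 window was 37.7% G and C and held TATAAA alone. The RefSeq table had 36 such windows for 33 of the 42 genes. CCAAT stood in 13 of the 36 (36.1%), against 37.4% of all 32851 windows, GGGCGG in 22 (61.1%), against 35.7%, and TATAAA in 5 (13.9%), against 13.6%.

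Collagen IV forms the network of basement membranes around cardiomyocytes and capillaries, and its 6 genes lie as 3 pairs that are transcribed away from each other. Col4a1 read 12.03, 11.93 and 12.32 in PTIP KO mice, against 12.10, 12.42 and 12.25 in PTIP+ mice. Col4a2, the other chain of the common trimer, read 11.71, 11.63 and 11.85 in PTIP KO mice, against 11.71, 11.97 and 11.98 in PTIP+ mice. Both genes had their lowest value in PTIP KO mouse 2, and their groups overlapped. The differences were -0.16 for each, with SE 0.14 and a limma adjusted p of 0.826 for Col4a1, and SE 0.13 and a limma adjusted p of 0.797 for Col4a2. The further Col4a1 probe set had the opposite sign with 0.02.

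The RefSeq starts of Col4a1 and Col4a2 lie 21 bases apart on chromosome 8, so that 1 window holds the start of both genes, and it is shown because the pair had nearly the same difference. The window of Col4a2 on the plus strand is chr8:11312555-11312854 in GRCm38.p6, with capitals as above, and the minus-strand start of Col4a1 is at base 272 of it.
Col4a2: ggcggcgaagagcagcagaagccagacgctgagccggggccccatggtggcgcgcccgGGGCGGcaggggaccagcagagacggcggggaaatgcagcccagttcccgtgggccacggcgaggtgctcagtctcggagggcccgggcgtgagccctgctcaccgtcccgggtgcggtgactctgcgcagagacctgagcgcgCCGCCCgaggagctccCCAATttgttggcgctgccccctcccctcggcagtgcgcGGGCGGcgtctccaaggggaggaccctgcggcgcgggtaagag
This window was 73.7% G and C, with 3 matches to GGGCGG and 1 to CCAAT.

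The remaining collagen IV chains, which enter trimers of more specialised membranes such as those of the kidney and eye, had differences of either sign. Col4a5 read 8.30, 8.58 and 8.76 in PTIP KO mice, against 8.92, 8.58 and 8.71 in PTIP+ mice, a difference of -0.19 (SE 0.16, limma adjusted p = 0.815). Col4a3 differed by -0.18 (SE 0.25) and its neighbour Col4a4 by 0.01 (SE 0.14). Col4a6, the neighbour of Col4a5, read 5.42, 5.08 and 5.21 in PTIP KO mice, against 5.04, 4.90 and 5.02 in PTIP+ mice. All 3 PTIP KO values lay above all 3 PTIP+ values, which held in that direction for 9.44% of all genes. The difference of 0.25 (SE 0.13, limma adjusted p = 0.633, exact permutation p = 0.1, which is the lowest value this design permits) lay at a level below the median, and the further Col4a6 probe set differed by -0.14. The type IV median of -0.16 depended on the mice used. It was -0.00420 without PTIP KO mouse 1 and -0.04 without PTIP+ mouse 2, and it was 0.08 among the 4 arrays whose description numbers share their leading digits, which are PTIP KO 3 and all PTIP+ mice.

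FACIT collagens attach to the surface of fibrils, and most of them were highest in 1 control mouse. Of the 9 genes, 7 had their highest value in PTIP+ mouse 1. Col14a1, which binds collagen I fibrils in soft tissue, was not among these and read 7.51, 7.50 and 7.70 in PTIP KO mice, against 7.68, 7.39 and 7.35 in PTIP+ mice, a difference of 0.10 (SE 0.13). Col16a1, a FACIT of fibroblasts and smooth muscle, read 6.46, 5.87 and 6.17 in PTIP KO mice, against 5.75, 5.84 and 6.02 in PTIP+ mice. Its difference of 0.30 (SE 0.17, limma adjusted p = 0.687) was 0.44 without PTIP KO mouse 2 and 0.15 without PTIP KO mouse 1. The groups overlapped through PTIP KO mouse 2, which lay inside the span of the PTIP+ mice.

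All 7 FACIT genes with a negative difference were highest in PTIP+ mouse 1. Col19a1 read 3.05, 2.96 and 3.05 in PTIP KO mice, against 4.45, 3.18 and 3.03 in PTIP+ mice. Its difference of -0.53 (SE 0.35, limma adjusted p = 0.743) was -0.08 without PTIP+ mouse 1, and its further probe sets differed by 0.06 and -0.21. Col12a1, a FACIT of tissues under tension, read 5.02, 5.59 and 4.89 in PTIP KO mice, against 6.56, 4.87 and 5.45 in PTIP+ mice, a difference of -0.46 (SE 0.41, limma adjusted p = 0.829). Here too PTIP+ mouse 1 stood highest. Col20a1 read 5.55, 5.29 and 5.34 in PTIP KO mice, against 5.72, 5.50 and 5.51 in PTIP+ mice, a difference of -0.19 (SE 0.12, limma adjusted p = 0.745), with PTIP KO mouse 1 above 2 of the PTIP+ mice. Col22a1, found at tissue junctions such as that of muscle and tendon, differed by -0.15 (SE 0.22). The median of the 9 was -0.15, and it was 0.16 without PTIP+ mouse 1.

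The beaded microfilaments of collagen VI link cells of the interstitium to their basement membranes, and the 3 genes of its main trimer had similar levels in both groups. Col6a1 read 11.29, 11.04 and 11.26 in PTIP KO mice, against 11.03, 11.12 and 11.14 in PTIP+ mice, a difference of 0.10 (SE 0.12, limma adjusted p = 0.875). Col6a2 read 10.98, 10.69 and 10.79 in PTIP KO mice, against 10.93, 10.73 and 10.77 in PTIP+ mice, with a difference of 0.00716 (SE 0.12), and a further probe set had the opposite sign with -0.01. Col6a3 differed by -0.02 (SE 0.14), so that the intervals of all 3 chains stayed within 0.5 log2 units of 0. The alternative chains Col6a4 and Col6a5 were dim, with means of 2.65 and 2.18.

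Col15a1 and Col18a1 encode the multiplexins, proteoglycan collagens on the outer face of basement membranes, and Col18a1 had the smallest p of all members. Col18a1, whose C-terminal fragment is endostatin, read 8.20, 8.38 and 8.20 in PTIP KO mice, against 8.26, 7.57 and 7.80 in PTIP+ mice. The PTIP KO values lay close together, and PTIP+ mouse 1 lay among them, above PTIP KO mice 1 and 3. The difference was 0.38 (SE 0.18, 95% interval -0.04 to 0.81, unadjusted p = 0.0715 and adjusted p = 0.608 with limma, exact permutation p = 0.3), and the further Col18a1 probe set differed by 0.21. Without PTIP+ mouse 1 the Col18a1 difference was 0.58 (limma adjusted p = 0.219), and without PTIP+ mouse 2 it was 0.23. Col15a1 read 10.46, 10.48 and 10.41 in PTIP KO mice, against 10.59, 10.15 and 10.34 in PTIP+ mice, a difference of 0.09 (SE 0.13).

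The rest of the other types were network, anchoring and transmembrane collagens. Col8a1, a network collagen of vessels, differed by -0.04 (SE 0.14), and its partner Col8a2 by 0.09 (SE 0.32). Col7a1, the collagen of anchoring fibrils in skin, read 3.90, 3.40 and 3.86 in PTIP KO mice, against 3.56, 3.40 and 3.62 in PTIP+ mice, a difference of 0.19 (SE 0.16). Col13a1, a transmembrane collagen, read 3.89, 4.01 and 3.62 in PTIP KO mice, against 4.16, 3.86 and 4.34 in PTIP+ mice. Its difference was -0.28 (SE 0.16, limma adjusted p = 0.704), and its groups overlapped through PTIP+ mouse 2. The transmembrane collagens Col23a1, Col25a1 and Col17a1 differed by -0.09, -0.23 and 0.09, with Col17a1 dim at a mean of 2.24. Col10a1, of hypertrophic cartilage, differed by -0.14 and Col26a1 by 0.07. The median of the 16 genes of other types was 0.00209, with 8 higher and 8 lower.

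Differences between mice of the same group were wider than differences between the groups for many collagens. PTIP+ mouse 1 had the highest value of the 6 mice for 21 of the 42 collagens, against 26.2% of all genes, and PTIP+ mouse 2 had the lowest for 19, against 19.2% of all genes. The median deviation of the collagens from the mean of each gene over 6 mice was -0.01, -0.05 and 0.02 in PTIP KO mice 1 to 3, and 0.19, -0.11 and -0.02 in PTIP+ mice 1 to 3. The bright collagens had another order. For the 11 with a level of 9 or above, the median deviation was 0.05, -0.18 and 0.07 in PTIP KO mice, against 0.04, 0.10 and -0.04 in PTIP+ mice, so that PTIP KO mouse 2 was lowest there and had the lowest value for 7 of the 11, against 10.6% of all genes at that level.

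**Figure D3:**
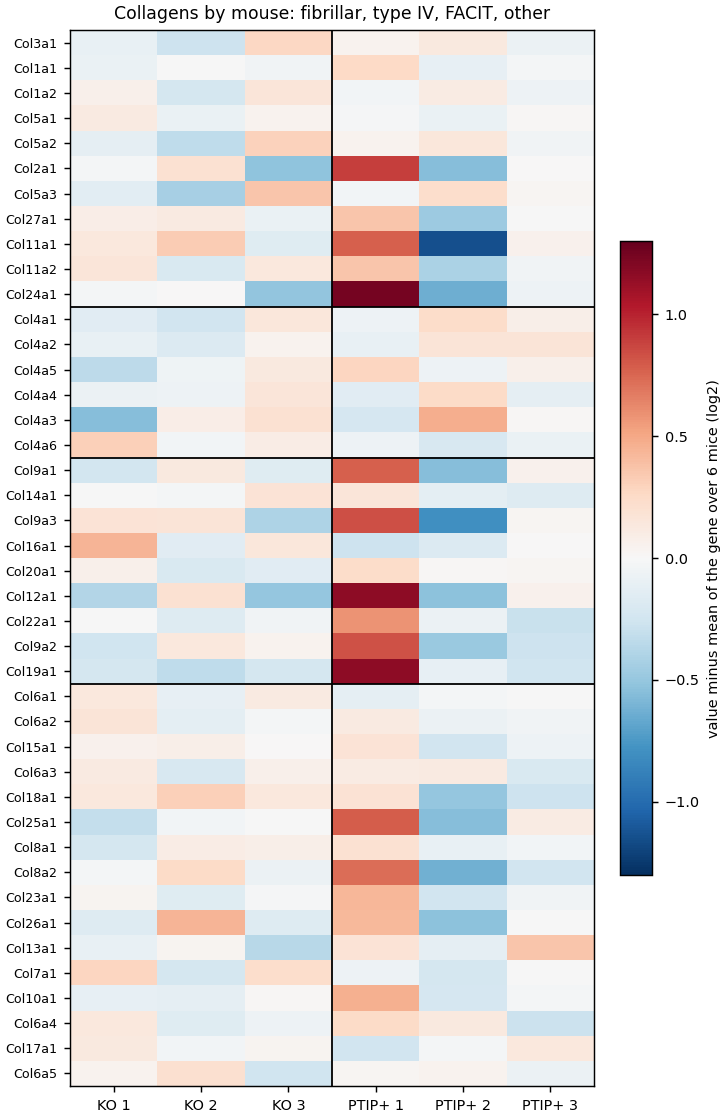
Value of each collagen gene in each mouse minus the mean of that gene over the 6 mice (colour, log2), with PTIP KO mice left of the line and PTIP+ mice right of it, and genes grouped by type. PTIP+ mouse 1 stands out in red for Col2a1, Col11a1, Col24a1, Col9a1, Col9a3, Col12a1 and Col19a1, several of which are blue in PTIP+ mouse 2.

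Collagens of cartilage spread widely between the PTIP+ mice. Col2a1, the fibril collagen of cartilage that cardiac valves also contain, read 8.26, 8.47 and 7.76 in PTIP KO mice, against 9.18, 7.73 and 8.28 in PTIP+ mice. Col11a1, which is copolymerised with collagen II, read 6.08, 6.28 and 5.79 in PTIP KO mice, against 6.72, 4.80 and 5.99 in PTIP+ mice. Col9a1, a chain of the FACIT that coats collagen II, read 7.62, 7.99 and 7.70 in PTIP KO mice, against 8.63, 7.30 and 7.92 in PTIP+ mice. In each of them the PTIP+ mice held both extremes, PTIP+ mouse 1 the highest and PTIP+ mouse 2 the lowest, with the PTIP KO mice between. Col9a3 had the same order with 6.66, 6.64 and 6.07 in PTIP KO mice, against 7.31, 5.67 and 6.50 in PTIP+ mice. Differences between the groups were -0.23 for Col2a1 (SE 0.36), 0.21 for Col11a1 (SE 0.43), -0.18 for Col9a1 (SE 0.31) and -0.04 for Col9a3 (SE 0.39). The further Col11a1 probe set differed by -0.49, the opposite sign, and was highest in PTIP+ mouse 1 but lowest in PTIP KO mouse 3. That of Col27a1 had neither of these extremes in a PTIP+ mouse, while the brighter further probe set of Col9a3 had both, as above. Further probe sets had the opposite sign for Col9a1 with 0.12 and for Col9a3 with 0.09, both at dim levels.

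A list of 7 cartilage collagens (Col2a1, Col9a1, Col9a2, Col9a3, Col11a1, Col11a2 and Col27a1) was drawn up after these values were seen. All 7 were highest in PTIP+ mouse 1 and lowest in PTIP+ mouse 2, as were 8 of the other 35 collagens (among them Col24a1, Col12a1, Col25a1 and Col8a2) and 6.11% of all genes. Leaving out the highest or the lowest PTIP+ mouse shifts such genes up or down by construction, and the Col2a1 difference was 0.16 without PTIP+ mouse 1 and -0.57 without PTIP+ mouse 2. A list of 15 other cartilage genes, also chosen after seeing the data, held 9 with the same extremes: Acan, Chad, Cnmd, Epyc, Hapln1, Matn1, Matn3, Sox9 and Ucma. Acan, the large proteoglycan of cartilage and valves, read 8.21, 8.61 and 8.09 in PTIP KO mice, against 9.19, 7.47 and 8.15 in PTIP+ mice. Sox9, the transcription factor of cartilage that binds collagen II genes, read 7.32, 7.74 and 7.29 in PTIP KO mice, against 8.03, 7.06 and 7.46 in PTIP+ mice. Sox5, Sox6, Matn4 and Prg4 shared neither of these extremes. Comp and Snorc were highest in PTIP+ mouse 1, but Comp was lowest in PTIP KO mouse 2 and Snorc in PTIP KO mouse 1. The actin control probe sets, which gauge RNA integrity, had a 3' minus 5' log2 difference of 1.51, 1.45 and 1.64 in PTIP KO mice, against 1.85, 1.17 and 1.38 in PTIP+ mice. For the Gapdh control probe sets it was 0.92, 0.93 and 0.90 in PTIP KO mice, against 1.27, 0.66 and 0.79 in PTIP+ mice. Both controls too were highest in PTIP+ mouse 1 and lowest in PTIP+ mouse 2. Their part in the order of the cartilage genes, or of the other collagens, was not tested.

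**Figure D4:**
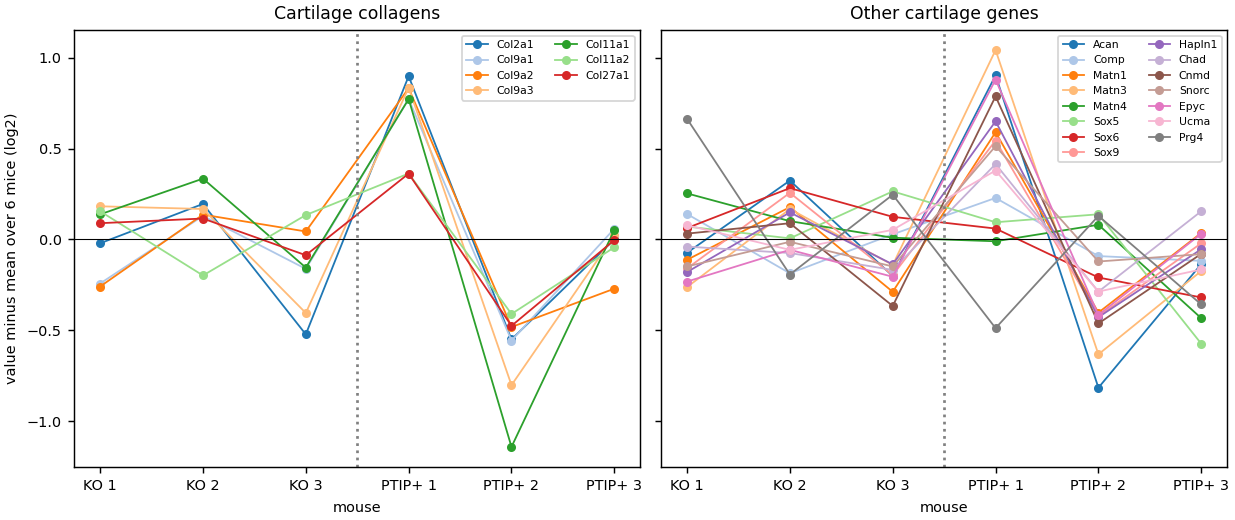
Value in each mouse minus the mean over the 6 mice (log2, vertical axis) for 7 cartilage collagens (left) and 15 other cartilage genes (right); each colour is a gene, and lines only join the points of a gene. All 7 cartilage collagens peak in PTIP+ mouse 1 and are lowest in PTIP+ mouse 2.

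Genes that make, process, bind and degrade collagen were examined in 6 lists of 116 genes, of which 108 were measured. None of the 108 passed, and 7 had an unadjusted limma p under 0.05 (6.48%), against 9.27% of all genes. Of 23 measured genes of collagen biosynthesis and secretion, none reached that p, and the median difference was -0.02. Colgalt1, which adds galactose to hydroxylysine, differed by 0.41 (SE 0.19), Serpinh1, the collagen chaperone Hsp47, by -0.26 (SE 0.13) and P4ha2, a subunit of prolyl hydroxylase, by -0.37 (SE 0.19). These had limma adjusted p values of 0.586, 0.624 and 0.631, and the groups overlapped for each.

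Among 12 measured genes of procollagen processing and cross-linking, 8 were lower by sign, with a median of -0.12. Adamts3, a protease that removes the N-propeptide of procollagens, read 7.46, 7.37 and 7.50 in PTIP KO mice, against 8.02, 7.90 and 8.37 in PTIP+ mice. Pcolce2, an enhancer of C-propeptide removal that acts in the heart, read 7.97, 7.96 and 8.16 in PTIP KO mice, against 8.45, 8.61 and 8.45 in PTIP+ mice. Neither gene had overlapping groups, a state found with lower PTIP KO values for 6.57% of all genes. The differences were -0.66 for Adamts3 (SE 0.14, limma adjusted p = 0.205) and -0.48 for Pcolce2 (SE 0.11, limma adjusted p = 0.251). Loxl4, of the lysyl oxidases that start cross-links, differed by 0.25 (SE 0.12, limma adjusted p = 0.599).

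The proteins that coat fibrils and those that break them down did not pass either. The 17 measured proteoglycans and glycoproteins had a median of -0.03 with none at an unadjusted p under 0.05, and Tnxb, Fmod and Prelp differed by 0.27, -0.51 and 0.16. Of 21 measured genes of collagen breakdown and its inhibitors, 2 had an unadjusted limma p under 0.05, both higher, against 9.27% of all genes. The median was -0.02. Mmp3, the protease stromelysin, read 6.37, 6.27 and 6.37 in PTIP KO mice, against 5.81, 5.87 and 6.06 in PTIP+ mice, a difference of 0.42 (SE 0.11, limma adjusted p = 0.301). Its groups did not overlap, nor did those of Mmp12, the macrophage elastase, at a dim level (difference 0.52, SE 0.21, limma adjusted p = 0.521). Non-overlapping groups with higher PTIP KO values were found for 3 of the 21, against 9.44% of all genes. Timp4, the inhibitor of these proteases that is abundant in heart, differed by -0.30 (SE 0.18).

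**Figure D5:**
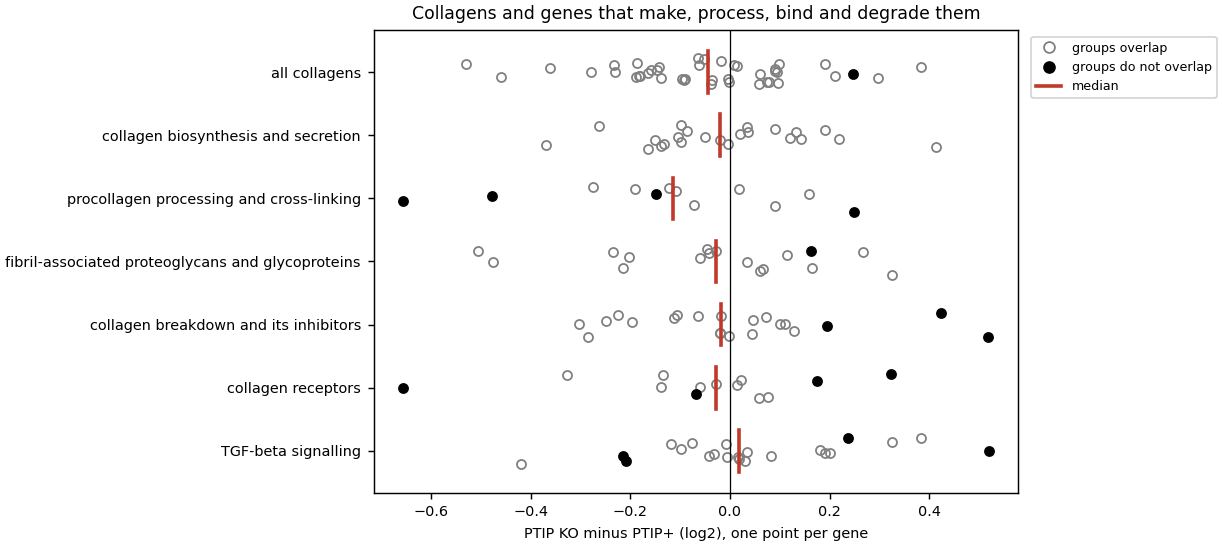
Log2 difference of PTIP KO minus PTIP+ (horizontal axis) for each measured gene of the collagen family and of 6 related lists; filled points are genes whose groups do not overlap, and red bars are medians. All medians lie between -0.12 and 0.02, and Adamts3, Lair1, Mmp12 and Ccn2 lie farthest out in their lists.

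Of 13 measured collagen receptors, 1 was lower and 1 higher at an unadjusted limma p under 0.05, against 9.27% of all genes. The median was -0.03. Lair1, an inhibitory collagen receptor of leukocytes, read 4.45, 4.50 and 4.33 in PTIP KO mice, against 5.49, 4.94 and 4.82 in PTIP+ mice (difference -0.66, SE 0.18, limma adjusted p = 0.318). Mag, known from myelin, differed by 0.32 and Oscar, of osteoclasts, by -0.33. Both, like Lair1, had means below the median of all probe set means. Of 22 measured genes of TGF-beta signalling, the main profibrotic pathway, 1 reached that p, against 9.27% of all genes, and the median was 0.02. Ccn2, the connective tissue growth factor gene and a target of this pathway, read 11.71, 11.68 and 11.75 in PTIP KO mice, against 11.43, 11.32 and 10.83 in PTIP+ mice. Its groups did not overlap, and the difference was 0.52 (SE 0.17, limma adjusted p = 0.404). Non-overlapping groups were found for 2 of the 22 with higher and 2 with lower PTIP KO values, against 9.44% and 6.57% of all genes. Tgfb3 and Ltbp1 differed by 0.38 and -0.21.

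Markers of the cells that make collagen were measured beside these genes. All 13 fibroblast markers were measured, with mean levels from 9.82 to 9.93 in PTIP KO mice, against 9.76 to 9.97 in PTIP+ mice, and a median difference of 0.03. The 8 myofibroblast markers, of fibroblasts in an active, contractile state, had mean levels from 7.84 to 8.05 in PTIP KO mice, against 7.81 to 8.04 in PTIP+ mice. PTIP+ mouse 1, highest for the cartilage collagens, was lowest for 8 of the 13 fibroblast markers, against 20.3% of all genes. Endothelial markers (10) had means from 10.26 to 10.38 in PTIP KO mice, against 10.18 to 10.45 in PTIP+ mice, and smooth muscle and pericyte markers (9) from 9.94 to 10.12 in PTIP KO mice, against 9.87 to 10.02 in PTIP+ mice. Macrophage markers (9) were all lower by sign, with means from 8.13 to 8.66 in PTIP KO mice, against 8.69 to 8.83 in PTIP+ mice. Their median difference was -0.35, with a limma adjusted p of 0.288 or above. Of the 9, 4 had an unadjusted limma p under 0.05, against 9.27% of all genes. The groups of 4 did not overlap, with lower PTIP KO values, against 6.57% of all genes. Lair1, a gene of leukocytes with a mean below the median level, moved in the same direction. Mmp12, the macrophage elastase and also dim, moved in the opposite direction. The part of macrophages in either was not tested. The 5 measured Schwann cell markers had means from 6.42 to 7.03 in PTIP KO mice, against 6.32 to 6.43 in PTIP+ mice. All 5 were higher by sign, with a median difference of 0.49. Of these, 3 had an unadjusted limma p under 0.05, against 9.27% of all genes, and none passed after adjustment (0.402 or above). The 7 mesothelial markers, of the cells that cover the heart, varied most, from 4.79 in PTIP KO mouse 2 to 7.14 in PTIP KO mouse 3, against 5.80 to 6.90 in PTIP+ mice. PTIP KO mice 2 and 3 were also the lowest and the highest mouse on the brightest probe sets of Col3a1, Col5a2, Col5a3 and Col1a2, though not both on their further probe sets, and the part of the mesothelium in this was not tested.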

How the data were processed

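The deposited table holds log2 expression values of 45101 probe sets on 6 arrays, made by the authors with RMA per the submitters' processing notes. The RMA version was not given in the sources used here. The log2 scale was inferred from the range of the deposited values. RNA was amplified and biotin-labelled with a NuGen Ovation kit, per the labels. Tests ran on 45037 probe sets, without the 64 controls. The platform annotation names 1 gene for 34945 of these, several for 932 and does not list 9160, which stay unnamed. Current RefSeq symbols were found by Entrez identifier (34741 matched), and each gene was represented by its brightest probe set.

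PTIP KO minus PTIP+ differences were tested, two-sided, by lmFit and eBayes of limma 3.58.1 (R 4.3.3), and p values were adjusted with Benjamini-Hochberg over all probe sets, with 0.05 as the threshold. The fit had a median of 7.39 degrees of freedom. The number of arrays limits the precision.

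The members, their types and all lists were chosen with earlier results of these data known. Values per mouse are given for collagens that passed (none did), the 3 brightest of each type, the 8 with the smallest p and those above the median level whose groups did not overlap. Single values of the remaining collagens are given as other chains of a named trimer or to account for every member, and Col2a1, Col11a1, Col12a1 and genes of the cartilage lists were named after their values were seen. Of each related list, up to 3 genes with the smallest p are named. Alternatives were array weights, a robust prior, a variance trend, a filter on dim probe sets, 2 other normalizations, a replicate block, leaving out mice, the 4 arrays of similar description numbers, averaging the probe sets of each gene, and no moderation.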

Additional observations from a re-analysis of the deposited data

How the results depend on the processing

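No collagen gene and none of the 108 genes of related lists passed with limma under any of the 16 alternatives. The smallest limma adjusted p of the 19 collagens examined for this was 0.219, for Col18a1 without PTIP+ mouse 1. With bright probe sets only, 30 of the 42 collagens were tested. No probe set at all passed with the replicate block, without PTIP KO mouse 1 or without PTIP+ mouse 2. Those settings therefore say nothing particular to collagens. The number of Paxip1 probe sets that passed was 0 with the replicate block, among the 4 arrays of similar description numbers, without moderation, and without any single mouse, where tests have fewer degrees of freedom. The replicate numbers showed no sign of pairing, though 3 mice a group cannot exclude it. The deviations of same-numbered mice correlated at -0.15, -0.08 and -0.01, within the range of -0.18 to 0.20 over all pairs of a PTIP KO and a PTIP+ mouse. With the replicate block 0 collagens passed, but so did 0 of all probe sets, so this count cannot bear on pairing. The number of collagens whose groups did not overlap was 0 with bright probe sets only and after averaging the probe sets of each gene. It was 13 among the 4 arrays, where 1 PTIP KO mouse stands for its group and is assumed to vary like the rest. With 1 mouse left out it was 2 to 7. Smaller groups overlap less often by construction, and the shares of all genes in these settings are not given here. The counts from fewer mice therefore cannot be compared with the 1 found among all 6 mice. The type IV median was 0.0845 among the 4 arrays and between -0.248 and -0.00420 with 1 mouse left out. Over all 45037 probe sets 86 passed, against 185 with a variance trend, 51 with a robust prior, 204 with array weights, 0 with the replicate block and among the 4 arrays, 1 without moderation and 0 to 21 with 1 mouse left out. Of the 19 collagens, 10 kept their sign in all alternatives and 9 did not. With array weights Col3a1 was 0.0216, Col1a2 0.0245 and Col9a3 0.0673. After renewed quantile normalization Col6a2 was -0.00141, and after centring arrays on their medians Col1a2 was 0.0383 and Col9a3 0.00488. Among the 4 arrays Col3a1 was 0.238, Col1a2 0.155, Col4a1 0.0606, Col4a5 0.0299 and Col6a2 -0.0214. After that averaging Col1a2 was 0.0283 and Col6a2 -0.00128. With 1 mouse left out, Col3a1 lay between -0.214 and 0.0545, Col1a2 between -0.0826 and 0.110, Col1a1 between -0.166 and 0.0172, Col9a1 between -0.508 and 0.157, Col9a3 between -0.447 and 0.372, Col6a2 between -0.0735 and 0.0736, and Col15a1 between -0.0141 and 0.202. The causes of these changes were not tested. With 3 mice a group, the median 95% interval of a collagen reached 0.39 log2 units to either side.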

Other observations

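Leaving out 1 mouse brought 7 collagen results under an unadjusted limma p of 0.05, none of which passed after adjustment. These were 3 of the 42 collagens without PTIP KO mouse 2, 2 without PTIP+ mouse 1 and 2 without PTIP+ mouse 2. All 42 were tested anew for each omission, so some such results can arise without a difference. The share of all genes under these omissions is not given here. Without PTIP+ mouse 1, Col18a1 differed by 0.58 (limma adjusted p = 0.219) and Col8a2, a network collagen, by 0.48 (limma adjusted p = 0.377). Without PTIP KO mouse 2, Col16a1 differed by 0.44, Col7a1 by 0.35 and Col4a6 by 0.33, with limma adjusted p values from 0.612 to 0.677. Without PTIP+ mouse 2, the transmembrane collagens Col25a1 and Col13a1 differed by -0.56 and -0.41 (limma adjusted p = 0.625 and 0.621). No collagen appeared under more than 1 of these omissions.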
